A study of Homo sapiens with 9 samples.

Results

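The comparison set the KDM6A knockout clone KO C28 against WT in PANC-1, an established human cell line from a pancreatic ductal carcinoma, and used 6 of the 9 libraries of the series. WT stands for PANC-1 cells that received no guide RNA, and KO C28 is 1 clone obtained after CRISPR/Cas9 was aimed at KDM6A (UTX), so any feature that this clone carries besides the targeted lesion cannot be told apart from the knockout. Each line gave 2 Bru-seq libraries and 1 BruUV-seq library. In Bru-seq, RNA made during 30 min with 2 mM bromouridine was captured with no chase (0 h), so that the reads report ongoing transcription and include introns. In BruUV-seq, cells also received 100 J/m2 of UV light, which stalls polymerases on long genes and gathers signal near gene starts. The second clone, KO C22 (3 libraries), entered the fits to estimate the spread and the assay effect. Growth conditions were the same for all groups per the labels, which leave unsaid if each replicate had its own culture, so a p-value here speaks of the spread among these libraries, which may be technical.

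KDM6A encodes a demethylase that removes the repressive methyl groups which Polycomb complexes place on lysine 27 of histone H3, and it also sits in COMPASS-like complexes with the enhancer methyltransferases KMT2C and KMT2D. Loss of KDM6A is a recurrent event in pancreatic cancer. PANC-1 cells are poorly differentiated, with both epithelial keratins and mesenchymal genes active, and are known to lack CDKN2A.

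The libraries differed in quality. Of the WT and KO C28 libraries, 5 held 15.8 to 25.7 M reads in genes and Bru-seq KO C28 replicate 2 held 5.64 M. Outside genes lay 46.5% of the reads of this shallow library and 12.2% to 14.1% of those of the other 5. It read most strongly where WT was quiet. In the lowest of 5 equal bins of genes, ordered by WT level per kb, its median log2 difference from WT was 3.12, against 0.45 in replicate 1 and 0.43 in BruUV-seq, and in the highest bin it was -0.89, against -0.01 and -0.23. Fold changes are therefore given with all 9 libraries of the series and without this library. CDKN2A gave 0 reads in 8 of the 9 libraries and 1 read in BruUV-seq KO C28, and CDKN2B gave 0 in all 9. The ductal carcinoma markers, KRT8 and KRT18 among them, summed to 552 to 999 CPM (a library's reads scaled by its TMM-adjusted size) in WT and 677 to 2400 in KO C28. Of 11 tested, 8 lay above 0 with all 9 libraries and 7 without the shallow one, so members moved both ways. EPCAM stood at 8.74, 16.5 and 15.5 CPM in WT (Bru-seq 1, Bru-seq 2, BruUV-seq) and 4.27, 7.19 and 7.03 in KO C28. CDH1 stood at 5.40, 11.6 and 24.8 against 1.08, 8.55 and 8.27. Markers of cells that should be absent were low in WT and highest in the shallow library: 20 blood cell markers summed to 0.641 to 2.75 CPM in WT, to 1.66 and 2.47 in the other KO C28 libraries and to 24.7 in Bru-seq KO C28 replicate 2. The 10 endothelial markers summed to 12.1 to 15.2 CPM in WT and 13.4 to 58.2 in KO C28, the 10 fibroblast markers to 4.07 to 7.95 and 5.48 to 28.2, and the 14 acinar and islet markers to 0.632 to 1.88 and 1.18 to 14.6. The part of these signals in the results below was not tested beyond leaving the library out.

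**Figure D1:**
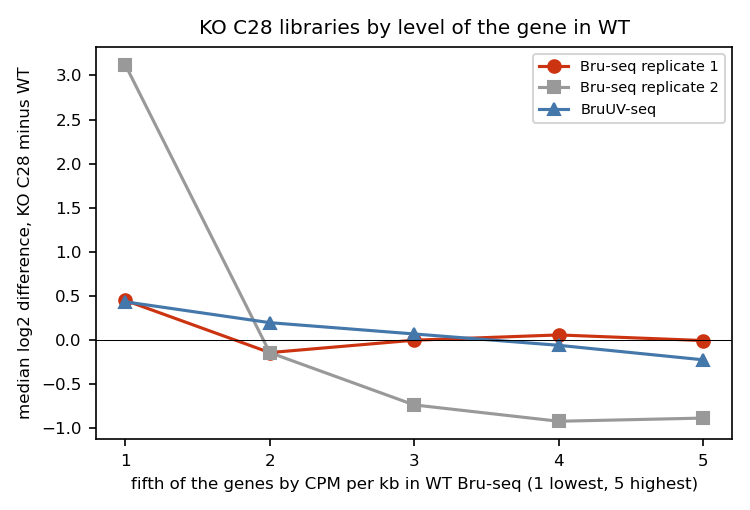
Median log2 difference from WT (y axis) of each KO C28 library over 5 equal bins of the genes ordered by CPM per kb in WT Bru-seq (x axis, lowest to highest). Bru-seq replicate 2 (grey) lies at 3.12 in the lowest bin and below -0.7 in the upper 3, while Bru-seq replicate 1 (red) and BruUV-seq (blue) stay between -0.23 and 0.45.

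KDM6A itself (plus strand of chromosome X, 44873177 to 45112602) still gave reads in KO C28. It stood at 322, 276 and 203 CPM in WT (Bru-seq 1, Bru-seq 2, BruUV-seq) and at 337, 65.9 and 201 in KO C28. KO C28 replicate 2 lay below all others and the rest overlapped with WT. The log2 fold change was -0.35 (SE 0.57) with all 9 libraries and 0.13 (SE 0.34) without the shallow library, with edgeR adjusted p of 0.839 and 1.00. A small deletion or insertion is invisible in a sum over a whole gene, so the level is no check of the knockout. UTY, the Y-linked paralogue, had at most 5 reads in any library. KDM6B, the other H3K27 demethylase, had 4.12 and 30.4 CPM in the WT Bru-seq replicates, 3.06 and 7.68 in those of KO C28, and 30.6 (WT) and 31.2 (KO C28) with UV, so the groups overlapped (-1.15, SE 0.78 with all 9 libraries and -1.34, SE 0.95 without the shallow one).

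The main question was which genes the clone transcribed at another rate than WT. With all 9 libraries, 26 of 20819 genes tested (0.125%) passed an edgeR quasi-likelihood test at a Benjamini-Hochberg adjusted p below 0.05, 17 higher in KO C28 (0.0817%) and 9 lower (0.0432%). Without Bru-seq KO C28 replicate 2, 67 of 21986 genes (0.305%) passed, 40 higher (0.182%) and 27 lower (0.123%). The lists shared 25 genes, 1 passed only with all 9 libraries and 42 only without the shallow library, and all 68 had the same sign in both fits. With all 9 libraries and an offset for gene length in each, 20 genes passed, 9 higher and 11 lower, and 16 of these were among the 26. The library left out lay above both WT Bru-seq libraries for 39 of the 40 genes that rose and below both for 24 of the 27 that fell. Over all 21986 genes tested, it lay above both for 36.3% and below both for 47.7%. These counts are a description, since the genes were chosen against the same WT libraries and 19 of the 40 lie in the lowest of the 5 bins by WT level, where this library's median difference was 3.12.

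**Figure D2:**
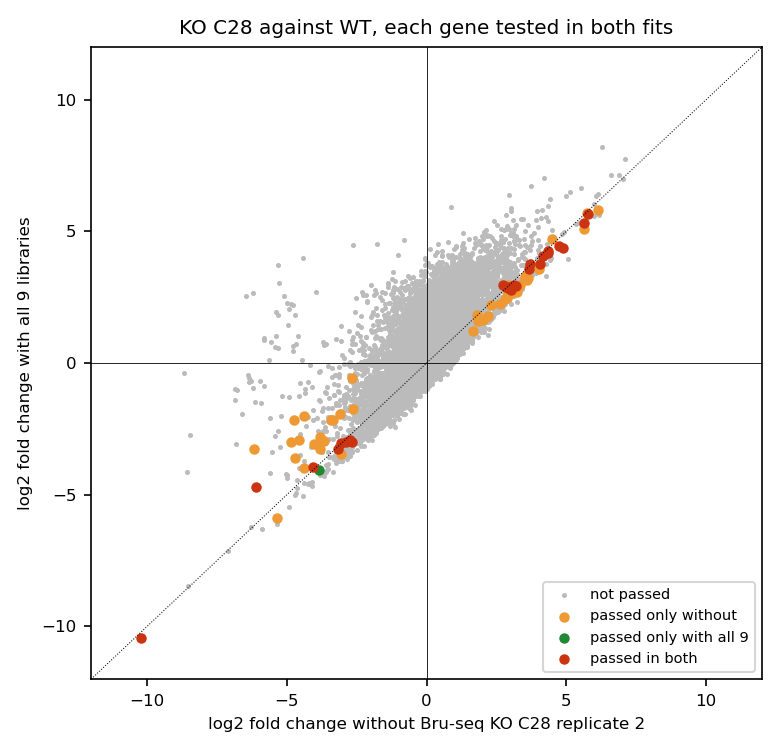
Log2 fold change of KO C28 against WT for each gene tested in both fits, without Bru-seq KO C28 replicate 2 (x axis) and with all 9 libraries (y axis); the dotted line marks equal values. The 25 genes that passed in both (red) lie near the line, and several of those that fell only without the library (orange) lie well above it, while the cloud of grey genes stretches upward.

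The count rested on single libraries. With all 9, the 26 genes became 6 and 1 without WT Bru-seq replicates 1 and 2, 55 without Bru-seq KO C22 replicate 2, and 17 without Bru-seq KO C28 replicate 1. Leaving out a BruUV-seq library gave 1 (WT), 13 (KO C22) and 1 (KO C28). The 67 became 32 and 38 without WT Bru-seq replicates 1 and 2, and 7 without KO C28 replicate 1. Here the BruUV-seq omissions gave 3 (WT), 28 (KO C22) and 26 (KO C28). With Bru-seq alone there remained 1 gene, AFAP1-AS1, of 22827 (0.00438%).

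**Figure D3:**
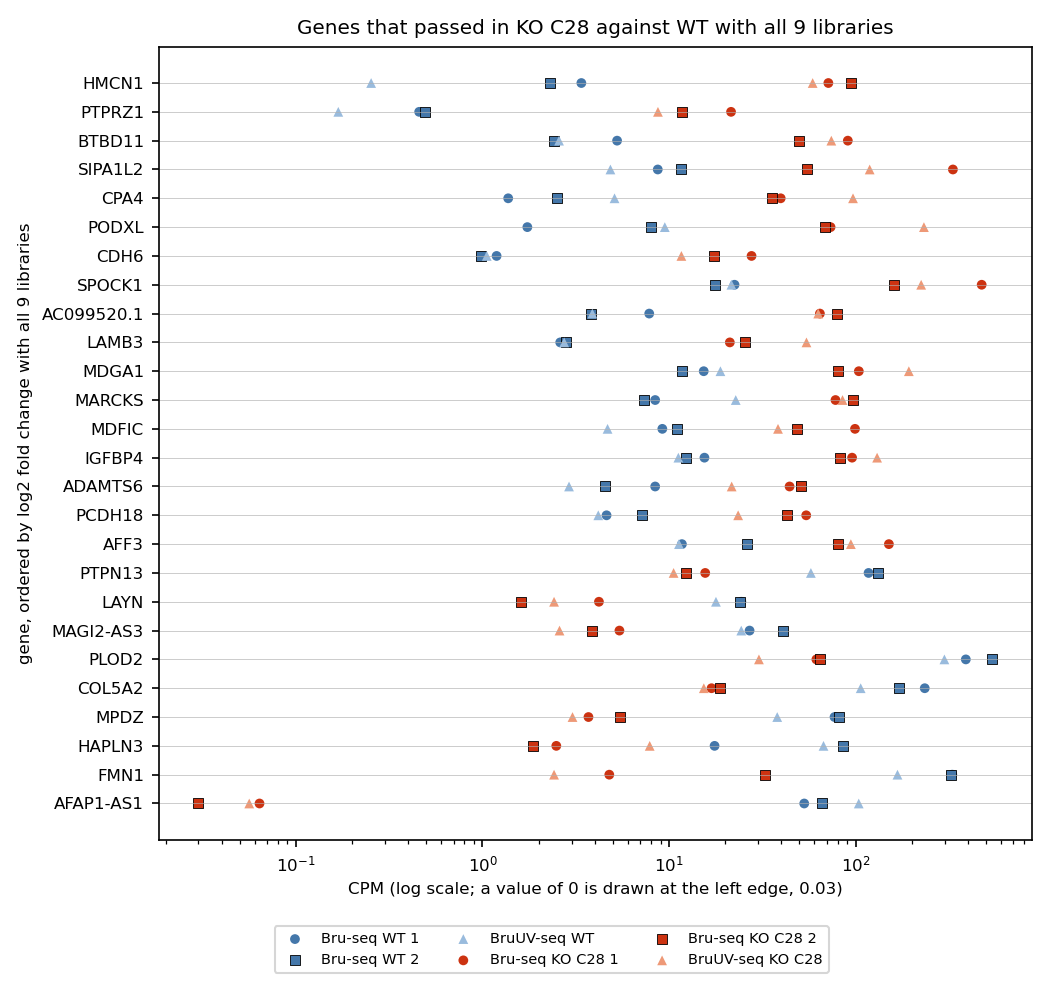
CPM on a log scale (x axis) in each WT library (blue) and KO C28 library (red) for the 26 genes that passed with all 9 libraries (y axis, ordered by log2 fold change); circles and squares are Bru-seq replicates 1 and 2, and triangles are BruUV-seq. In all 26 genes, which were chosen by a test on these libraries, the red points lie to one side of the blue points of the same assay. The same held for 12.9% of all genes tested in the higher direction and 14% in the lower.

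The genes are taken below by their known roles, an order chosen after their values were seen. The first 6 that rose encode secreted or matrix proteins. In a bulk library, fewer cells that transcribe a gene and less transcription per cell cannot be told apart. Because the rule for naming took genes that passed, the values below describe them and add no second test. No value of WT overlapped with KO C28 within an assay for any gene that passed in both fits. That held for 12.9% of all genes tested in the higher direction and 14% in the lower, and the test that chose these genes favours it. The secreted metallocarboxypeptidase CPA4 (chromosome 7, 130293134 to 130324180, plus strand) stood at 1.37, 2.5 and 5.10 CPM in WT (in the order Bru-seq 1, Bru-seq 2, BruUV-seq, as for the genes that follow), whereas KO C28 had 39.7, 35.7 and 96.8. Its KO C28 replicates were close to each other, and the log2 fold change was 4.26 (SE 0.45, adjusted p = 0.00801) with all 9 libraries and 4.35 (SE 0.41, adjusted p = 0.00306) without the shallow one. LAMB3, a chain of the basement membrane laminin that anchors epithelial cells (chromosome 1, 209614870 to 209652466, minus strand), rose from 2.61, 2.79 and 2.74 CPM to 21.2, 25.5 and 54.5. The testican proteoglycan SPOCK1 (chromosome 5, 136975298 to 137499348, minus strand) rose from 22.4, 17.6 and 21.6 CPM to 474, 160 and 224. Hemicentin HMCN1, an extracellular protein of the fibulin family (chromosome 1, 185734551 to 186190949, plus strand), rose from 3.39, 2.29 and 0.253 CPM to 71.4, 94.2 and 58.8. In SPOCK1 the shallow library was the lowest of the 3 KO C28 libraries, and in HMCN1 the highest. The metalloprotease ADAMTS6 (chromosome 5, 65148736 to 65481920, minus strand) rose from 8.42, 4.55 and 2.91 CPM to 44.2, 50.7 and 21.7. IGFBP4, which binds insulin-like growth factors outside the cell (chromosome 17, 40443461 to 40457731, plus strand), rose from 15.5, 12.4 and 11.2 CPM to 95.7, 82.3 and 130. Log2 fold changes with all 9 libraries were 3.55 (SE 0.44) for LAMB3, 3.76 (SE 0.52) for SPOCK1, 5.65 (SE 0.73) for HMCN1, 2.88 (SE 0.38) for ADAMTS6 and 2.90 (SE 0.46) for IGFBP4, with edgeR adjusted p from 0.0127 to 0.0420, and from 2.85 to 5.79 without the shallow library.

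Another 5 genes that rose encode surface or adhesion proteins, while 2 of the 35 members of the cadherin list and 0 of the 23 integrin genes tested rose. CDH6, a classical type II cadherin of kidney and some carcinomas (chromosome 5, 31193750 to 31329146, plus strand), went from 1.19, 0.984 and 1.05 CPM in WT to 27.7, 17.5 and 11.6 in KO C28. The protocadherin PCDH18 (chromosome 4, 137518918 to 137532494, minus strand) went from 4.62, 7.17 and 4.17 to 54.3, 42.9 and 23.5. The sialomucin PODXL, which keeps membranes apart (chromosome 7, 131504131 to 131556609, minus strand), went from 1.74, 7.99 and 9.49 to 73.4, 68.8 and 232. PTPRZ1, a receptor phosphatase that binds proteoglycan ligands (chromosome 7, 121873089 to 122062036, plus strand), was near silent in WT at 0.458, 0.492 and 0.169 CPM and stood at 21.5, 11.8 and 8.72 in KO C28. MDGA1, an adhesion protein held by a lipid anchor (chromosome 6, 37630679 to 37697990, minus strand), went from 15.3, 11.7 and 18.8 to 104, 80.2 and 193. Their log2 fold changes with all 9 libraries were 4.05 (SE 0.62), 2.84 (SE 0.45), 4.16 (SE 0.60), 5.32 (SE 0.85) and 2.97 (SE 0.38), and without the shallow library 4.17, 2.91, 4.33, 5.65 and 3.12, all at an edgeR adjusted p below 0.05.

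Of the other genes that rose in both fits, 5 encode proteins inside the cell and 1 is an unnamed transcript. SIPA1L2, a relative of GTPase-activating proteins for Rap (chromosome 1, 232397965 to 232561558, minus strand), stood at 8.70, 11.6 and 4.85 CPM in WT and 332, 54.9 and 119 in KO C28. Its Bru-seq replicates of the clone lay far apart, and the log2 fold change was 4.39 (SE 0.63) with all 9 libraries and 4.87 (SE 0.31) without the shallow one. BTBD11, a protein with BTB and ankyrin domains (chromosome 12, 107318413 to 107659642, plus strand), rose from 5.26, 2.42 and 2.57 CPM to 90.8, 49.8 and 74.1. MARCKS, a protein kinase C substrate at the membrane (chromosome 6, 113857362 to 113863471, plus strand), rose from 8.42, 7.29 and 22.8 to 78.0, 96.5 and 85.0. The nuclear protein AFF3 (chromosome 2, 99545419 to 100142575, minus strand) rose from 11.7, 26.2 and 11.3 to 151, 80.9 and 94.3, and MDFIC, an inhibitor of MyoD-family factors (chromosome 7, 114922154 to 115019202, plus strand), from 9.20, 11 and 4.68 to 99.2, 48.2 and 38.4. That transcript, AC099520.1 (chromosome 5, 104484204 to 105392970, minus strand) rose from 7.83, 3.81 and 3.88 to 64.3, 79.9 and 63.0. Log2 fold changes with all 9 libraries and without the shallow one were 4.44 and 4.75 for BTBD11, 2.96 and 2.73 for MARCKS, 2.77 and 3.02 for AFF3, 2.92 and 3.18 for MDFIC, and 3.76 and 3.69 for AC099520.1.

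Of the genes that fell, the long noncoding RNA AFAP1-AS1, known for high levels in several carcinomas (chromosome 4, 7754090 to 7778928, plus strand), lost almost all signal. It lies antisense to AFAP1, which stood at -0.98 (SE 0.61) with all 9 libraries and -0.52 (SE 0.44) without the shallow one and did not pass, and the strand setting of the counting is not known. WT held 1158, 1602 and 2464 reads (Bru-seq 1, Bru-seq 2, BruUV-seq), and KO C28 held 1, 0 and 1. The other clone, KO C22, held 2, 1 and 0. Scaled for library size, the ratio of WT to KO C28 was 1551 (95% exact counting interval 429 to 12808, which covers counting error only). It was the 1 gene among the 26 that passed under all 18 alternatives tried with all 9 libraries.

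FMN1, a formin that nucleates actin at junctions (chromosome 15, 32765545 to 33194733, minus strand), stood at 330, 326 and 168 CPM in WT. In KO C28 it stood at 4.78 in replicate 1, 32.6 in the shallow replicate 2 and 2.42 in BruUV-seq. The log2 fold change was -4.72 (SE 0.71, adjusted p = 0.0354) with that library and -6.08 (SE 0.36, adjusted p = 0.000267) without it, by edgeR. MPDZ, a scaffold of tight junctions (chromosome 9, 13105704 to 13279590, minus strand), fell from 77.0, 81.2 and 38.0 CPM to 3.70, 5.45 and 3.04 (-3.96, SE 0.43 with all 9 libraries and -4.07, SE 0.43 without the shallow one). The phosphatase PTPN13 (chromosome 4, 86594315 to 86815171, plus strand) fell from 117, 132 and 57.6 to 15.6, 12.4 and 10.6 (-2.91, SE 0.36 and -2.76, SE 0.32 in the same order).

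Collagen and hyaluronan genes were among those that fell as well. COL5A2, a chain of fibrillar collagen V (chromosome 2, 189031896 to 189179879, minus strand), went from 235, 171 and 106 CPM to 16.9, 18.7 and 15.4 (-3.25, SE 0.39 with all 9 libraries and -3.18, SE 0.39 without the shallow one). PLOD2, the lysyl hydroxylase that prepares collagen for crosslinking (chromosome 3, 146069440 to 146161167, minus strand), went from 389, 540 and 299 to 61.6, 64.1 and 30.3 (-3.04, SE 0.44 and -3.06, SE 0.43). LAYN, a hyaluronan receptor (chromosome 11, 111540508 to 111561745, plus strand), went from 24.4, 24.1 and 17.8 to 4.21, 1.61 and 2.42 (-2.98, SE 0.48 and -2.68, SE 0.38). HAPLN3, which links hyaluronan to proteoglycans (chromosome 15, 88877288 to 88895626, minus strand), went from 17.5, 85.4 and 67.2 to 2.49, 1.86 and 7.87, with WT Bru-seq replicates far apart, and passed with all 9 libraries (-4.06, SE 0.64, edgeR adjusted p = 0.0420) but not without the shallow one (-3.84, SE 0.71, adjusted p = 0.0718). The antisense RNA MAGI2-AS3 also passed in both fits (-2.99, SE 0.48 and -2.89, SE 0.43), and its first bases overlap the start of MAGI2 on the other strand. MAGI2, a junction scaffold, went from 207, 235 and 239 CPM to 38.9, 161 and 32.8 and passed without the shallow library (-2.63, SE 0.39) but not with it (-1.73, SE 0.56).

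The promoters of 4 of these genes, 2 that rose and 2 that fell, are shown because their RefSeq start lies within 41 bases of the start in the deposited tables and because they differ in CG content. Each is the 250 bases before the RefSeq start in GRCh38.p14, 5′ to 3′ on the strand of the gene, and capitals mark CG, TGANTCA (the AP-1 letters, the same on both strands), TATAAA and, on the other strand, TTTATA. They lie at chr7:130292911-130293160 (CPA4, plus), chr1:209652426-209652675 (LAMB3, minus), chr15:33194715-33194964 (FMN1, minus) and chr3:146161185-146161434 (PLOD2, minus).
CPA4: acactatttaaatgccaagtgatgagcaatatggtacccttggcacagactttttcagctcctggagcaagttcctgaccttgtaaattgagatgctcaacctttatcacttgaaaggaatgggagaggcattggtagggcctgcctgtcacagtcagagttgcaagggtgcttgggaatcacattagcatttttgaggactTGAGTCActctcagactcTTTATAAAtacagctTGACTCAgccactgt
LAMB3: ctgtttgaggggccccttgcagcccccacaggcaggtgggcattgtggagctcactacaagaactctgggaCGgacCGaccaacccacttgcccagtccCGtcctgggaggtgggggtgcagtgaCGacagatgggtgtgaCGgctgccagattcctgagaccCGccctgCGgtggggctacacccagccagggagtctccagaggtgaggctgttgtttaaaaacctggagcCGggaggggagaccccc
FMN1: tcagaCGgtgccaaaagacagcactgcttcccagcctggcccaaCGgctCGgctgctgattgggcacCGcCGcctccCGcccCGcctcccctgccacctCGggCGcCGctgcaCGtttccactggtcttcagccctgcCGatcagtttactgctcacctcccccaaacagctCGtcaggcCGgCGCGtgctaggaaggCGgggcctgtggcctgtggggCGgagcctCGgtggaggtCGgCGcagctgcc
PLOD2: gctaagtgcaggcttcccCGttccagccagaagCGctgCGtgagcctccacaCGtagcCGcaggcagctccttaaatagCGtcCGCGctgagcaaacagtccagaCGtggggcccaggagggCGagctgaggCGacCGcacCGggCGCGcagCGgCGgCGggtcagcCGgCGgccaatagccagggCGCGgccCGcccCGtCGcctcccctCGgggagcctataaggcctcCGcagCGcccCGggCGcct

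CPA4 has 0 CG and 2 matches to TGANTCA in this window, LAMB3 has 8 CG, FMN1 21 and PLOD2 30. Of the 68 genes called in either fit, 31 of the 40 that were higher and 22 of the 28 that were lower matched a RefSeq promoter by symbol, and so did 12041 of the genes tested. The median number of CG was 16 in the higher group, 19 in the lower group and 20 in promoters of all genes tested. TGANTCA was present in 3.23%, 4.55% and 4.33% of these groups. GGAATG, the TEAD letters, or its reverse CATTCC was present in 22.6%, 9.09% and 9.68%, and TATAAA or TTTATA in 12.9%, 0% and 6.02%. The groups called are small, and these matches are letters in a window, not measured binding. The groups also hold genes whose RefSeq start lies far from the deposited start, such as ADGRL2 (494210 bases) and TLN2 (170815 bases). Such windows may not be the promoter of the transcript counted.

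The genes that passed only without the shallow library split by what that library showed. Among those that rose, the bHLH factor TCF4 stood at 32.4, 27.7 and 12.1 CPM in WT and 413, 92.1 and 121 in KO C28, and the transmembrane collagen COL13A1 at 26.4, 16.7 and 9.02 against 149, 35.8 and 133. The extracellular superoxide dismutase SOD3 stood at 0.0915, 0.410 and 0.295 CPM against 14.7, 11.2 and 16.4, and the adenosine receptor ADORA1 at 0.641, 0.861 and 0.337 against 7.59, 19.5 and 19.4. In these 4 genes the shallow library lay above both WT Bru-seq libraries. Without it the log2 fold changes were 3.6 (SE 0.39), 3.24 (SE 0.37), 5.72 (SE 0.91) and 4.48 (SE 0.74), with edgeR adjusted p from 0.00568 to 0.0446. The MBT-domain gene L3MBTL4 (3.62), the polysialyltransferase ST8SIA4 (4.01), the cAMP phosphodiesterase PDE7B (3.51), the endocytic adaptor DAB2 (3.35), the receptor TNFRSF19 (3.52) and the guanine deaminase GDA (2.97) rose as well without it. With it, adjusted p for these 10 ran from 0.05004 to 0.145 in the same test.

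Among those that fell, the shallow library often read well above replicate 1. COL4A5, a chain of basement membrane collagen IV on chromosome X, stood at 156 and 205 CPM in WT Bru-seq, and at 7.40 and 64.9 in the KO C28 replicates. BruUV-seq gave 102 and 4.44 CPM. The zinc finger gene ZNF385D stood at 43.0 and 58.2 CPM in WT Bru-seq and at 2.55 and 44.9 in KO C28. BruUV-seq gave 19.0 and 0.787. In both, replicate 1 and BruUV-seq of the clone were far below WT. Replicate 2 lay between replicate 1 and WT in COL4A5 and within the WT range in ZNF385D. Replicate 2 was also within the WT range in the flippase gene ATP10A (10.7 and 23.8 CPM against 1.15 and 15.5 in Bru-seq) and between in the adhesion receptor ADGRG2 (7.92 and 4.79 against 0.255 and 2.85). In ANKRD1, a muscle ankyrin-repeat gene used as a marker of YAP activity, all KO C28 libraries were low, with 9.57, 7.99 and 9.99 CPM in WT against 0.0638, 0 and 0.394. The whole list of 30 YAP and TEAD response genes had a median of -0.17 with all 9 libraries (11 members above 0) and 0.01 without the shallow one (15 above 0). DSC2, a desmosomal cadherin, stood at 13.8, 13.4 and 7.0 CPM against 0.574, 1.12 and 0.506, the sorting receptor SORL1 at 69.0, 47.1 and 61.3 against 1.28, 10.7 and 3.43, and the cardiac splicing factor RBM20 at 20.2, 32.4 and 20.9 against 1.40, 4.71 and 1.86. Without the shallow library these 8 log2 fold changes ran from -5.36 (ANKRD1, SE 0.79) to -3.81 (RBM20, SE 0.60), with edgeR adjusted p from 0.00476 to 0.0391. Of the 27 genes that fell in that fit, the shallow library read over 2 times as high as replicate 1 in 17, as it did in 6572 of all 21986 genes, and low values in replicate 1 helped to choose the 27.

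Whether the clone differs from KO C22 was tested directly. With all 9 libraries 0 of 20819 genes passed (1189 at an unadjusted p below 0.05, and 228 with DESeq2), and without the shallow library 18 of 21986 did (0.0819%), 6 higher in KO C28 (0.0273%) and 12 lower (0.0546%). At an unadjusted p below 0.05 the shares were 5.71% with all 9 libraries and 5.27% without the shallow one. Of the 25 genes that passed against WT in both fits, 4 were among the 18: FMN1, LAYN, AFF3 and BTBD11. FMN1 was low in KO C22 too, at -3.19 (SE 0.66) against WT. LAYN and AFF3 stood near WT in KO C22, at log2 fold changes of 0.29 (SE 0.44) and 0.42 (SE 0.40) against the same WT libraries, where KO C28 stood at -2.98 and 2.77. For the other 21, no difference between the clones passed. Some of them were alike in KO C22, such as CPA4 (3.48, SE 0.44 in KO C22), LAMB3 (4.34, SE 0.45) and COL5A2 (-2.94, SE 0.38). Others were not: PCDH18 stood at 0.57 (SE 0.43) and MDGA1 at 1.42 (SE 0.36) in KO C22, against 2.84 and 2.97 in KO C28. A difference that did not pass therefore does not show that the clones are alike. The clones share their WT libraries, so equal signs against WT are not separate evidence.

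Gene lists were described by counts and medians, beside the medians over all genes tested, -0.06 with all 9 libraries and -0.01 without the shallow one. Of all genes tested, 47.1% lay above 0 with all 9 libraries and 49.6% without the shallow one. Members are counted in each direction over all genes tested, against 0.0817% and 0.0432% (0.182% and 0.123% without the shallow library). Where no member passed, counts at an unadjusted p below 0.05 are read against 7.55% of all genes higher and 2.91% lower with all 9 libraries, and 2.45% and 2.92% without the shallow one. Of 42 laminins and matrix glycoproteins tested, LAMB3, HMCN1 and SPOCK1 rose with all 9 libraries, and the fibrillin gene FBN1 rose as well without the shallow one (2.02, SE 0.31), while 0 fell in either fit. The list median was 1.04 with all 9 and 0.41 without. Of 38 collagen chains, COL5A2 fell with all 9 libraries, and without the shallow one COL5A2, COL4A5 and COL11A1 fell and COL13A1 rose. COL11A1, another fibrillar chain, went from 879, 815 and 458 CPM to 94.5, 33.3 and 59.0. The collagen median was 1.57 with all 9 libraries and 0.58 without, and by library -0.19 in Bru-seq replicate 1, 2.22 in replicate 2 and 1.34 in BruUV-seq, so the chains that passed and the list median pointed different ways. Cadherins had the same spread, with CDH6 and PCDH18 of 35 up in both fits and medians of 0.11, 2.87 and 0.67 by library. Mesenchymal and EMT genes (28 tested) had medians of 1.03 with all 9 libraries and 0.39 without the shallow one, and 0.23, 1.43 and 1.08 by library. Of these genes, 0 passed with all 9 libraries and 1 rose without the shallow one. At an unadjusted p below 0.05 in edgeR, 10 were higher and 1 lower with all 9 libraries, and 10 and 2 without. The blood cell markers, whose list should be silent, also had a high median in the shallow library (4.49 over 3 genes tested, against -1.07 in replicate 1 and -0.48 in BruUV-seq).

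**Figure D4:**
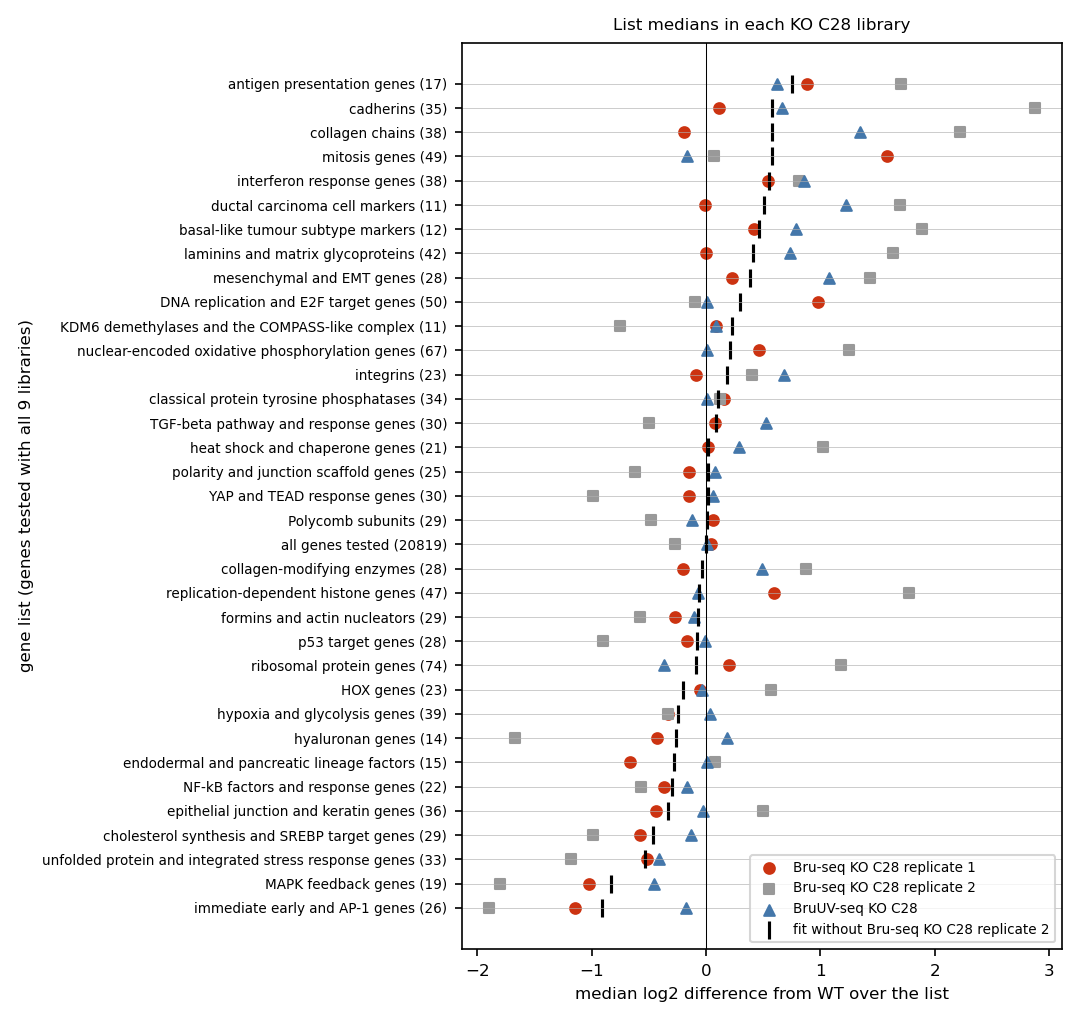
Median log2 difference from WT (x axis) over each gene list (y axis, with the number of genes tested) in Bru-seq KO C28 replicate 1 (red circles), replicate 2 (grey squares) and BruUV-seq (blue triangles), with the median in the fit without replicate 2 as a black bar. Antigen presentation and interferon genes lie above 0 and immediate early, MAPK feedback, stress response and cholesterol genes below 0 in all 3 libraries, while cadherins and collagens have their highest median in replicate 2.

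Growth-signal genes lay low in every KO C28 library, with no member past the threshold in either fit. Immediate early and AP-1 genes, which answer growth signals within minutes, had 4 of 26 members above 0 and medians of -1.15, -1.90 and -0.18 in Bru-seq replicate 1, replicate 2 and BruUV-seq (-1.02 with all 9 libraries, -0.91 without the shallow one). At an unadjusted p below 0.05, 8 members were lower and 0 higher with all 9 libraries, and 5 and 0 without the shallow one. FOS stood at 22, 68.9 and 99.1 CPM in WT and 2.42, 2.23 and 34.3 in KO C28 (-3.54, SE 0.72, edgeR adjusted p = 0.111, and -3.31, SE 0.84 without the shallow library), and FOSB at 20.7, 248 and 92.7 against 0.765, 2.60 and 27.1 (-4.95, SE 1.36, adjusted p = 0.334, and -4.68, SE 1.71). The WT Bru-seq replicates differed widely in both. MAPK feedback genes, which ERK signalling switches on to restrain itself, had 3 of 19 members above 0 and medians of -1.02, -1.80 and -0.46 by library (-1.04 and -0.83 in the fits), with 7 lower and 0 higher at that p, and 6 and 2 without the shallow library. DUSP6, the ERK phosphatase, stood at 45.1, 131 and 89.8 CPM in WT against 10.6, 5.33 and 26.5 (-2.84, SE 0.55, edgeR adjusted p = 0.0947, and -2.44, SE 0.52, adjusted p = 0.145 without the shallow library). SPRY1, an inhibitor of receptor tyrosine kinase signalling, stood at 58.6, 219 and 123 against 32.3, 16.6 and 42.6, and the EGFR inhibitor ERRFI1 at 1773, 5682 and 2385 against 772, 483 and 901. Their log2 fold changes were -2.15 and -2.11 with all 9 libraries and -1.82 and -1.77 without the shallow one. In these 3 genes the groups did not overlap within an assay, which held for 14% of all genes tested in the lower direction. Their WT Bru-seq replicates also lay far apart, with replicate 2 the higher in each.

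Stress and lipid genes lay low too, again with 0 members past the threshold. Unfolded protein and integrated stress response genes had a median of -0.63 (33 tested) with all 9 libraries and -0.54 without the shallow one, and 11 members lower and 0 higher at an unadjusted p below 0.05 in both fits. CHAC1, a glutathione-degrading enzyme induced by ATF4, stood at 3.16, 11.8 and 46.5 CPM in WT and 0.574, 1.24 and 6.64 in KO C28 (-2.96, SE 0.65, and -3.14, SE 0.68 without the shallow library), and PSAT1 of serine synthesis at 54.0, 130 and 103 against 25.3, 20.6 and 36.7 (-1.83, SE 0.41, and -1.70, SE 0.42). Cholesterol synthesis and SREBP target genes had medians of -0.54 (29 tested) and -0.47, with 8 members lower and 1 higher at that p with all 9 libraries, and 6 and 0 without. ELOVL6, a fatty acid elongase, stood at 44.8, 50.8 and 32.0 CPM against 9.95, 12.5 and 15.2 (-1.72, SE 0.41, edgeR adjusted p = 0.204, and -1.65, SE 0.41 without the shallow library). WT Bru-seq replicate 2 lay above replicate 1 in CHAC1 and PSAT1, and the pair was close in ELOVL6.

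Interferon and antigen presentation genes lay high, with 0 members past the threshold in either fit. Interferon response genes had 30 of 38 members above 0, a median of 0.83 with all 9 libraries and 0.55 without the shallow one, and medians of 0.54, 0.81 and 0.85 by library. At an unadjusted p below 0.05, 8 members were higher and 0 lower in both fits. SAMD9L, an interferon-induced antiviral factor, stood at 0.595, 0.861 and 0.843 CPM in WT and 5.29, 20.7 and 5.85 in KO C28 (3.76, SE 0.81, edgeR adjusted p = 0.140, and 2.80, SE 0.60 without the shallow library), and IFI44 at 0.458, 1.19 and 0.295 against 7.46, 8.05 and 2.31 (3.14, SE 0.83, adjusted p = 0.297, and 2.99, SE 0.77). Antigen presentation genes had 16 of 17 members above 0, with medians of 1.28 and 0.75 in the fits, and 7 higher and 0 lower at that p with all 9 libraries, 3 and 0 without. HLA-B of class I stood at 5.45, 6.76 and 8.43 CPM against 12, 39.6 and 16, and the peptide transporter TAP1 at 4.62, 4.14 and 10.6 against 9.18, 14.5 and 19.0. Their log2 fold changes were 1.82 and 1.28 with all 9 libraries and 0.87 and 0.90 without the shallow one. The shallow library was the highest in HLA-B, SAMD9L and IFI44.

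Lists tied to KDM6A held no gene that passed. Of 29 Polycomb subunits and 11 KDM6 demethylase and COMPASS-like genes tested, 0 passed in either fit, with medians of -0.18 and -0.17 with all 9 libraries and 0.00 and 0.23 without the shallow one. HOX genes, classic Polycomb targets, had a median of 0.28 (23 tested) with it and -0.21 without, and 0 passed. Ribosomal protein and histone genes also changed side, from 0.42 to -0.09 and from 0.70 to -0.07. Mitosis genes had medians of 1.58, 0.07 and -0.17 by library, and FOXM1, which drives G2 genes, stood at 43.6 and 5.45 CPM in the WT Bru-seq replicates against 53.2 and 38.7 in KO C28.

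Epithelial genes were mixed. Of 36 junction and keratin genes tested 0 passed with all 9 libraries and DSC2 fell without the shallow one. Occludin, OCLN, a tight junction protein, stood at 59.1, 72.6 and 72.9 CPM in WT against 9.12, 4.09 and 19.5 (-2.76, SE 0.51, edgeR adjusted p = 0.0834, and -2.35, SE 0.44, adjusted p = 0.0779 without the shallow library), whereas the keratin KRT19 stood at 81.3, 40.9 and 89.4 against 135, 597 and 253 (2.31, SE 0.65, adjusted p = 0.341, and 1.22, SE 0.42 without the shallow library). KRT8 and KRT18 were highest in the shallow library, at 766 and 671 CPM. GATA6, a factor of the classical tumour subtype, stood at 5.36, 16.8 and 8.14 CPM against 0.510, 0.124 and 2.59 (-3.30, SE 1.03, edgeR adjusted p = 0.417, and -2.50, SE 0.94 without the shallow library).

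The study as titled concerns CXCL1, a neutrophil attractant that acts on the receptor CXCR2. CXCL1 (chromosome 4, 73869404 to 73871242, plus strand) stood at 5.17, 2.25 and 4.09 CPM in WT and 9.88, 20.2 and 10.6 in KO C28, from 55 to 188 reads a library. All KO C28 libraries lay above WT of the same assay, as for 12.9% of all genes tested, and the difference did not pass (log2 fold change 1.78, SE 0.75, edgeR adjusted p = 0.473, and 1.45, SE 0.77, adjusted p = 1.00 without the shallow library). CXCL8, the strongest human ligand of the same receptor, stood at 2.84, 16.6 and 3.50 against 2.49, 3.96 and 2.70 (-1.15, SE 0.81, and -1.16, SE 0.94 without the shallow library). CXCL2 stood at 0.824, 1.23 and 0.506 against 2.42, 0 and 3.49. CXCL5, CXCL6 and CXCL3 had at most 14 reads in any WT or KO C28 library, and PPBP had 0 in all 9.

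Neighbours within 500 kb of the genes that passed were described by their median log2 fold change. For several genes that rose, a high median with all 9 libraries was not there without the shallow one: 3.27 and 0.36 beside LAMB3, 2.20 and -0.16 beside MDFIC, and 2.03 and 0.32 beside PTPRZ1. Beside PLOD2 the median over 5 neighbours was -4.07 with all 9 libraries and -3.88 without. There PLSCR4, a phospholipid scramblase gene, stood at -4.07 (SE 0.97) with all 9 libraries and -3.88 (SE 1.01) without the shallow one, and LNCSRLR and AC107021.2, both beyond the 3′ end of PLOD2 on the same strand, at -4.37 (SE 0.97) and -6.10 (SE 1.48) with all 9 libraries and -4.98 (SE 0.89) and -5.34 (SE 1.35) without. None of the 3 passed, and reads that run past the end of PLOD2 cannot be told apart from reads of the last pair. Next to LAMB3, the lipase inhibitor G0S2 stood at 3.92 (SE 0.94) with all 9 libraries and 2.83 (SE 0.84) without, and next to SIPA1L2 the scaffold DISC1 at 1.97 (SE 0.41) and 2.02 (SE 0.40), also short of the threshold.

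Runs of 20 neighbouring genes were ranked by their median without the shallow library, so these medians chose the runs and are given as a description. Over 16828 runs that overlap, the 1st and 99th percentiles were -0.45 and 0.53. The lowest run lay on chromosome 3 from C3orf58 to TM4SF1-AS1 (143971798 to 149386583), holds PLOD2, and had a median of -0.96 without the shallow library and -1.04 with it. Bru-seq replicate 1, replicate 2 and BruUV-seq gave -0.87, -1.35 and -0.94. In KO C22 against the same WT libraries, the median of this run was -1.34, and that of the adjoining run named next was -0.32. The adjoining run, AC108751.4 to AADACP1 (149384179 to 151928168), was at -0.58 with 0 of 20 genes above 0, and there MED12L, a Mediator subunit, fell without the shallow library (-3.68, SE 0.56, edgeR adjusted p = 0.0308). Of the higher runs, 1 on chromosome 11 from AP006621.1 to IGF2 (823634 to 2141238) had 19 of 20 genes above 0 and medians of 0.36, 1.09 and 1.48 by library. Whole chromosomes moved less, from -0.19 (chromosome 15) to 0.17 (chromosome 19) without the shallow library.

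**Figure D5:**
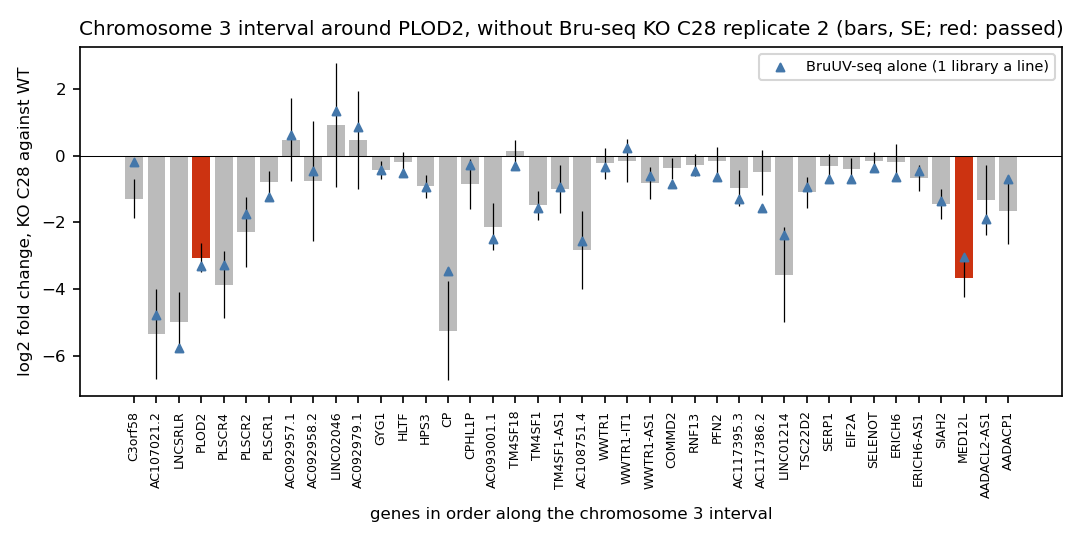
Log2 fold change without Bru-seq KO C28 replicate 2 (bars, with the standard error) and in BruUV-seq alone (triangles, 1 library a line) for the genes of both adjoining chromosome 3 runs in their order along the chromosome. PLOD2 and MED12L passed (red), and most genes between and around them lie below 0.

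Calls were mostly long genes. Of 5 equal bins by length, the longest, with genes of 90073 bases or more, held 10 of the 17 rises and 5 of the 9 falls with all 9 libraries, and 27 of 40 and 21 of 27 without the shallow one. Its median log2 fold change was 0.14 with all 9 libraries and 0.10 without. The assays were set side by side in the same model: a term for BruUV-seq minus Bru-seq passed for 0 of 20819 genes in edgeR (65 at an unadjusted p below 0.05), a term that rests on 1 BruUV-seq library a line. Across 11811 genes with a mean of at least 100 reads, the Bru-seq replicate 1 and BruUV-seq differences from WT, which share no library, correlated at a Pearson r of 0.50 and a Spearman rho of 0.32, and those of replicate 2 at 0.52 and 0.52. Genes are not independent replicates, and libraries of 1 assay share their preparation. With no BruUV-seq replicate, the lack of calls for the assay term does not show that the assays gave the same changes.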

How the data were processed

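Nascent RNA was sequenced by Bru-seq and BruUV-seq in 9 PANC-1 libraries. The authors deposited, per the file headers and values, estimated counts (fractional) over each gene body and the RPKM of the same 57733 genes. The submitters' processing notes name CASAVA 1.8.2, Bowtie2 2.3.3, STAR 2.5.3a, bedtools 2.16.2 and GRCh38 (hg38), with no role given, and the strand setting of the counting is not known. Intronic reads are included by the assay. The deposited RPKM served to derive each library's total and its share of reads outside genes.

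The counts were rounded and tested in edgeR 4.0.16 (R 4.3.3) with filterByExpr, TMM scaling and the quasi-likelihood F test, Benjamini-Hochberg adjusted at 0.05 over all genes tested, in a model of line and assay over all 9 libraries, then over the 8 without Bru-seq KO C28 replicate 2. Standard errors are the log2 fold change over the square root of F. Differences of single libraries used a prior count of 2. Depth was 5.64 to 31.1 M reads in genes, and the biological coefficient of variation was 63.4% over all 9 libraries and 53.5% over 8.

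Named were KDM6A, KDM6B, UTY, the CXCR2 ligands, the genes that passed in both fits with a mean of at least 100 reads in the higher line (no small, pseudogene or antisense symbol except AFAP1-AS1, and under 50% of the body beneath a more abundant gene), the 10 largest rises and falls of the rest, up to 4 members of each of 41 gene lists by p with a mean of at least 50 reads, and neighbours within 500 kb. MAGI2-AS3 was added after its values were seen, and 1 gene that met the rule is not reported here. The comparison, the members and the lists were chosen with earlier results of these data known. Alternatives were DESeq2 1.42.0, limma-voom (limma 3.58.1), RLE factors, other filters, a replicate block, a gene length offset and fewer libraries.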

Additional observations from a re-analysis of the deposited data

Results flagged for a closer look

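Bru-seq KO C28 replicate 2 had 46.5% of its reads outside genes, in data that the comparisons do not use, where the other 5 WT and KO C28 libraries had 12.2% to 14.1%.

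The clones KO C28 and KO C22 differed in 18 genes by edgeR without that library, and 0 of the 18 passed with it. The log2 differences in brackets are without that library unless said otherwise. In several of them, without that library, KO C28 stood near WT and KO C22 apart. The adhesion molecule KIRREL3 stood at 6.82, 3.48 and 4.34 CPM in WT (Bru-seq 1, Bru-seq 2, BruUV-seq), at 80.0, 162 and 99.8 in KO C22 and at 4.08, 38.3 and 4.89 in KO C28 (log2 difference -4.63, adjusted p = 0.0271). DOCK10 (-3.56, adjusted p = 0.0313) and LINC01505 (-3.18, adjusted p = 0.0386) were also high in KO C22. So was the matrix gene EFEMP1, at 38.8, 59.2 and 18.6 CPM, while KO C28 lay below WT, at 0.510, 1.73 and 1.07 against 3.80, 5.57 and 4.13 (-5.43, adjusted p = 0.0370). The RNA-binding LIN28B was low in KO C22, at 22.2, 12.3 and 3.78 CPM against 187, 37.5 and 81.8 in KO C28 and 238, 106 and 106 in WT (3.72, adjusted p = 0.0386). With all 9 libraries the log2 differences were -3.03 (KIRREL3), -2.76 (DOCK10), -1.16 (LINC01505), -5.06 (EFEMP1) and 3.20 (LIN28B). For LINC01505 the shallow library, at 80.9 CPM, lay above every KO C22 library (43.2, 68.7 and 47.6).

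In others KO C28 stood apart from WT, or the clones lay on opposite sides of it. The nuclear receptor PPARG stood at 825, 244 and 394 CPM in KO C28, 213, 324 and 160 in WT and 136, 200 and 52.3 in KO C22 (2.49, adjusted p = 0.0493), with the shallow library inside the WT range. FMN1, low in both clones (41.8, 39.6 and 15.5 CPM in KO C22 against 330, 326 and 168 in WT), was lower still in KO C28 (-2.94, adjusted p = 0.0271). LAYN (-2.96, adjusted p = 0.0386), COL4A5 (-3.19, adjusted p = 0.0453) and the latrophilin ADGRL2 (-3.70, adjusted p = 0.0493) were lower in KO C28, and AFF3 (2.61, adjusted p = 0.0493) and BTBD11 (3.03, adjusted p = 0.0493) higher. With all 9 libraries these differences were -3.27, -1.55, -2.56, 2.35 and 2.71. Those of PPARG and FMN1 were 2.06 and -1.53. The gap junction gene GJA1 lay on opposite sides of WT, at 23, 26.9 and 18.3 CPM in KO C28 and 0.919, 0.355 and 0.540 in KO C22 against 6.45, 11.1 and 6.91 in WT (5.14, adjusted p = 0.0271, and 5.22 with all 9 libraries). Against WT, GJA1 stood at a log2 fold change of 1.38 in KO C28 without the shallow library and -3.75 in KO C22. RBPMS (3.37, adjusted p = 0.0313) was higher in KO C28 than in KO C22, and the semaphorin SEMA3E (-3.79, adjusted p = 0.0370), PARM1 (-4.75, adjusted p = 0.0493) and the matrilin MATN2 (-3.03, adjusted p = 0.0493) lower. With all 9 libraries these differences were 2.92, -1.99, -3.25 and -2.26. Against WT, RBPMS stood at 1.04 in KO C28 without the shallow library and -2.30 in KO C22. SEMA3E stood at -1.57 and 2.22, PARM1 at -2.48 and 2.31 and MATN2 at -1.61 and 1.49. For KO C28 against WT in that fit, none of these genes passed, nor did GJA1 or PPARG.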

How the results depend on the processing

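With all 9 libraries, the 26 genes became 711 with DESeq2 (545 higher, 166 lower), 1100 with no filter on low counts, 42 with a mean of at least 50 counts, 6 with the WT and KO C28 libraries only, 1 with the Bru-seq libraries only, and 1 to 67 when each library was left out in turn. The 67 genes without Bru-seq KO C28 replicate 2 became 353 with DESeq2, 41 with limma-voom, 390 with no filter, 18 with WT and KO C28 only, 0 with Bru-seq only, and 3 to 85 when each further library was left out. The replicate block gave 49 and 358, and it is not settled if the replicate numbers pair the samples. Deviations of libraries with the same number correlated at 0.04 for WT and KO C28, 0.46 for WT and KO C22 and -0.38 for KO C22 and KO C28. Both values with KO C28 include the shallow library, so they cannot decide it. Limma-voom (26 with all 9), RLE factors (24 and 67) and the length offset (20 and 67) stayed within 1.5 times in number. The genes were not all the same: limma-voom kept 21 of the 26, RLE factors 23 of the 26 and all 67, and the length offset 16 of the 26 and 50 of the 67. KDM6A, not called, changed sign between the fits (-0.35 and 0.13). KO C28 against KO C22 gave 0 to 18 genes when libraries were left out, 228 with DESeq2 and 0 with RLE factors. The cause of these changes was not tested. None of the genes called reversed its direction: 277 of 468 values over the 26 genes, and 756 of 1205 over the 67, kept their side of the threshold. The list medians of KDM6 and COMPASS-like, Polycomb, HOX, ribosomal, histone, collagen-modifying, YAP, epithelial, polarity and blood marker genes changed sign without the shallow library. Depth limits that library most, at 5.64 M reads in genes.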

Other observations

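The receptor phosphatase PTPRN2 stood at 728 CPM in Bru-seq KO C28 replicate 2, where WT Bru-seq had 15.0 and 28.6, replicate 1 of the clone 25.9 and BruUV-seq 15.6 in WT and 33.6 in KO C28, so its level rests on that library.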
